A study of Saccharomyces cerevisiae with 8 samples.

Results

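Polyadenylated RNA from budding yeast (Saccharomyces cerevisiae) without RRP6 (rrp6) was compared with that of the wild type (WT), over all features of a deposited count table. The comparison used 4 of the 8 libraries of the series, rrp6 replicates 1 and 2 and WT replicates 1 and 2, and tested 7543 of the 9014 features in the table. The rrp6 strain is labelled MAT-alpha his3D1 leu2D0 lys2D0 ura3D0 with rrp6::LEU2, so that the marker LEU2 replaces RRP6, and WT is BY4742 with the same alleles except that replacement. The other 4 libraries come from rrp6 strains that also lack AIR1 or AIR2 and entered only the filter, the scaling and the estimate of the spread between duplicates. Each culture was started from 1 colony in 100 mL of rich medium (YPD), kept at 30 °C until the optical density was near 2.5, and its RNA was selected on poly(U) sepharose before SOLiD sequencing. No label states if duplicates were grown separately. The p-values therefore cover the spread between these libraries alone, and that may be technical. In bulk RNA, fewer cells of a kind and less RNA per cell cannot be told apart.

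Rrp6 is the 3′ to 5′ exonuclease that joins the RNA exosome in the nucleus. It trims the ends of small nucleolar RNAs (snoRNAs) and of 5.8S ribosomal RNA, and it degrades short-lived noncoding transcripts that the Nrd1-Nab3-Sen1 complex terminates and the TRAMP complex tags with adenosines. Cryptic unstable transcripts (CUTs) were defined by their accumulation without Rrp6, whereas stable unannotated transcripts (SUTs) are seen in wild-type cells. Since RNA was selected by its adenosine tail, counts of snoRNAs, spliceosomal RNAs, transfer RNAs and ribosomal RNAs stand for the molecules that the selection captured, not for the whole pool.

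In the rrp6 libraries, 452 of 759 CUTs, 117 of 687 SUTs and 5 of 68 snoRNAs were higher than in WT, whereas 56 of 5547 protein-coding genes were higher and 95 lower. Over all features, 10.1% passed the test, 664 higher in rrp6 (8.8% of those tested) and 97 lower (1.29%). The test was the quasi-likelihood test of edgeR at a Benjamini-Hochberg adjusted p under 0.05. Among protein-coding genes alone the shares were 1.01% higher and 1.71% lower. Values per feature are CPM, depth-scaled counts on edgeR's trimmed mean scale, which count reads and are not divided by length. Fold changes are log2 of rrp6 over WT with their standard error (SE).

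The deleted gene and its marker matched the labels. RRP6 had 25 and 39 counts in the rrp6 libraries, against 377 and 2131 in the WT libraries, or 0.721 and 1.65 CPM against 30.3 and 35.1 CPM. LEU2, the isopropylmalate dehydrogenase gene used as the marker, had 378 and 260 counts in rrp6 and 0 in both WT libraries. It was at least 267-fold higher in rrp6 than a floor of 3 counts over the WT libraries. The loss of RRP6 and the presence of LEU2 cannot be told apart in any value below. LYS2 and URA3 had 0 counts in all 4 libraries, and HIS3 was counted in all of them. None of the 3 genes on each side of RRP6 in the RefSeq annotation (IZH2, PHO80, ALG6, PFA4, YSP3 and UTP23) passed the test, with log2 fold changes from -0.58 to 0.58. Without rrp6 replicate 2, UTP23 passed at -1.05 (adjusted p = 0.045 by edgeR).

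Libraries differed in depth and in ribosomal RNA. Totals were 28895762 and 25803409 counts in rrp6 and 13787609 and 124620247 in WT, of which ribosomal DNA features held 57.0 and 68.9% in rrp6 and 66.9 and 82.3% in WT. Counts outside them numbered 12437479 and 8029375 in rrp6 and 4565468 and 22041136 in WT. Between 11.1 and 13.0% of the values in a library are fractions of a read, as arises when reads that match several places are shared. Counts of duplicates lay far beyond sampling noise (chi-square over its degrees of freedom 231 for rrp6, 359 for WT), so neither pair is 1 library deposited again. Separate preparations of 1 RNA would also exceed that noise.

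**Figure D1:**
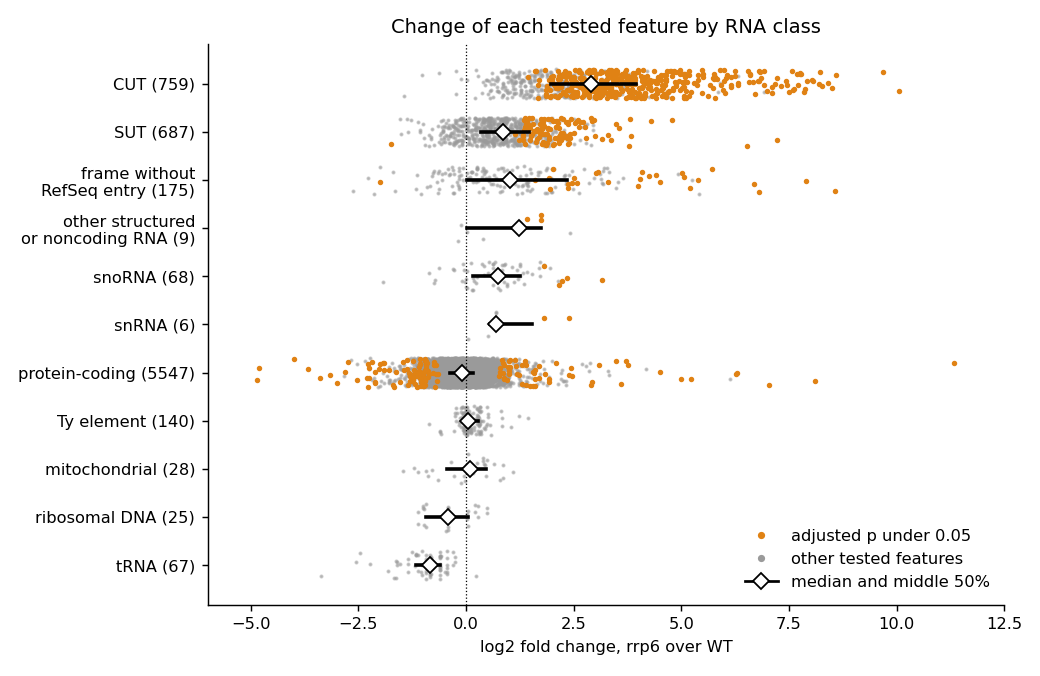
Log2 fold change of rrp6 over WT (x axis) for each tested feature, by RNA class (rows, number tested in parentheses); orange points passed an adjusted p under 0.05, and diamonds and bars give the median and the middle 50% of the class. CUTs lie to the right with a median of 2.89, SUTs follow at 0.86, and protein-coding genes centre on -0.10; points far to the right with no WT count, LEU2 among them, depend on the model's prior count.

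CUTs moved as a class. Of 925 listed, 759 were tested, 753 of these had a positive fold change and 6 a negative one, and none was lower past the threshold. A CUT could pass the count filter through strains without RRP6 alone. Of the 925, 837 and 850 had 3 or more counts in the rrp6 libraries, and 272 and 682 in the WT libraries. The filter and the definition of CUTs thus both favour positive changes among those tested, whereas the shares of counts below take in all 925. The median log2 fold change was 2.89, or 2.85 with the 50 CUTs that had no WT count set to their lower bound, against 0.01 over all features. The number of higher CUTs was 279 without WT replicate 2 and 357 or more when any other library was left out. It was 245 in a fit of the 2 strains alone and 226 with the ribosomal DNA share in the model. Both rrp6 libraries lay above both WT libraries for 693 of the 759, against 28.5% of all features. CUTs reached 5 CPM or more for 43 and 49 members in the rrp6 libraries and for 1 and 2 in the WT libraries. They held 0.460 and 0.528% of the counts outside ribosomal DNA in rrp6, against 0.0492 and 0.0724% in WT, an 8.12-fold ratio of the means. That ratio was not tested, since 0.33 is the smallest p that an exact test reaches with 2 libraries a strain.

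**Figure D2:**
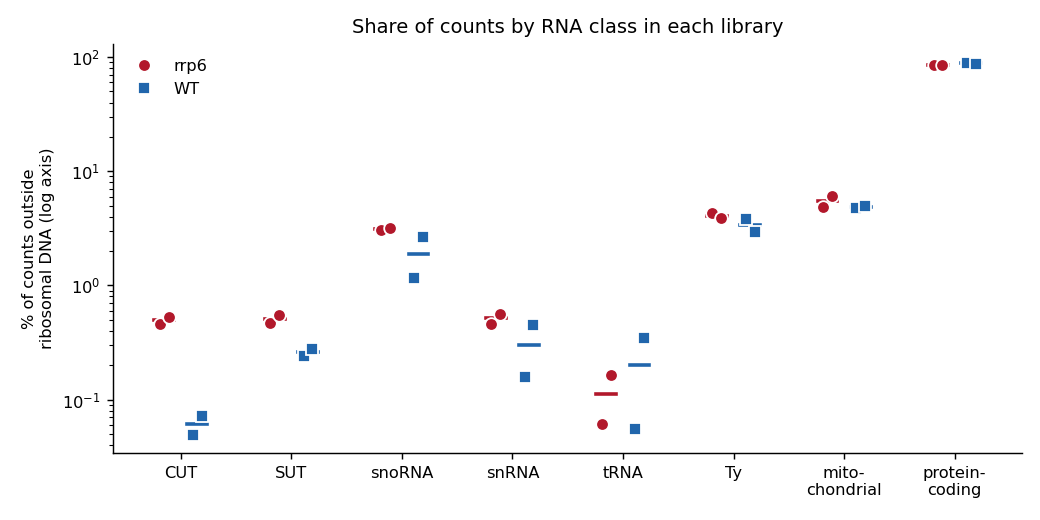
Share of the counts outside ribosomal DNA held by each RNA class (y axis, log scale, percent) in rrp6 libraries (red circles) and WT libraries (blue squares), with lines at the mean of 2 libraries. The CUT shares are 0.460 and 0.528% in rrp6 and 0.0492 and 0.0724% in WT, while the snoRNA, snRNA and tRNA shares differ more between the WT duplicates than the CUT shares do.

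The rise was spread over many CUTs. CUT306 alone held 17.7 and 11.8% of all CUT counts in the rrp6 libraries, and it took 70 and 111 CUTs to reach 50% of the class. CUT306 had 292 and 212 CPM in rrp6 and 2.98 and 4.59 CPM in WT, a log2 fold change of 6.02 (SE 0.35, adjusted p = 3.4e-05 by edgeR's quasi-likelihood test). CUT222 had 29.1 and 33.6 CPM in rrp6, against 0.161 and 0.230 CPM in WT, a change of 7.16 (SE 0.30, adjusted p = 4.6e-06). CUT841 had 28.3 and 29.4 CPM in rrp6 and 0.483 and 0.181 CPM in WT. CUT117 had 14.4 and 7.89 CPM in rrp6 and 0.242 and 0.0493 CPM in WT. CUT350 had 6.81 and 7.42 CPM in rrp6, with 0 and 2 counts in the WT libraries. These 5 had the largest changes among CUTs of at least 5 CPM whose groups do not overlap, as the naming rule asks, and their calls held in all 16 alternative analyses. In all, 354 CUTs were over 3 on the log2 scale, and 319 of these passed the test.

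SUTs moved less and not all one way. Of 687 tested, 577 had a positive fold change and 110 a negative one, the median was 0.86, and 383 stayed within 1 on the log2 scale. The rrp6 libraries lay above both WT libraries for 426 (62.0%) and below both for 25, against 28.5 and 22% of all features. SUTs of 5 CPM or more numbered 91 and 110 in rrp6 and 29 and 34 in WT. SUT720 had 26.5 and 18.03 CPM in rrp6, against 2.66 and 1.40 CPM in WT (log2 fold change 3.56, SE 0.34, adjusted p = 0.00057 by edgeR). SUT279 had 7.24 and 6.83 CPM in rrp6 and 0.403 and 0.526 CPM in WT, SUT105 had 6.61 and 7 CPM in rrp6 and 0.242 and 0.773 CPM in WT, and changes were 3.84 and 3.49. SUT583 changed by 3.31 and SUT003 by 2.57. These 5 were named by the same rule, which asks for groups that do not overlap, and each passed the test in all 16 alternatives. Leaving out rrp6 replicate 1 left 69 higher SUTs, and leaving out WT replicate 1 left 62. The number was 37 in a fit of the 2 strains alone and 41 with the ribosomal DNA share in the model.

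Reading frames without a RefSeq entry had a median near that of SUTs. Of 679 listed, 175 were tested, with 27 higher (15.4%, against 8.8% of all features), 1 lower and a median of 1.01. A frame could pass the count filter through strains without RRP6 alone, and 8 tested frames had no WT count. These values hold only for frames that passed. All 679 held 0.121 and 0.145% of the counts outside ribosomal DNA in rrp6 and 0.101 and 0.134% in WT, which overlap. The 27 became 17 without rrp6 replicate 1, 18 without WT replicate 1 and 13 without WT replicate 2. YDR426C had 6.42 and 6.40 CPM in rrp6, against 0.403 and 0.355 CPM in WT, a log2 fold change of 4.08 (adjusted p = 0.001 by edgeR). YPL222C-A had 8.25 and 7.64 CPM in rrp6 and 0.725 and 0.378 CPM in WT, a change of 4.04 (adjusted p = 0.00074 by edgeR). YMR173W-A, the 1 that was lower, had 6.27 and 4.98 CPM in rrp6 and 20.3 and 24.7 CPM in WT. Its call ended in 4 of the 16 alternatives, among them those without rrp6 replicate 1, rrp6 replicate 2 or WT replicate 2 (log2 fold change -2.17 to -1.85). Whether counting used strand is not given in the sources used here, and such frames often overlap genes, so reads of a frame and of an overlapping gene or antisense RNA cannot be told apart.

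Of the snoRNAs, 4 of 41 tested box C/D members (9.76%) and 1 of 27 of the box H/ACA type (3.70%) were higher in rrp6. Together they are 7.35% of the 68 tested, against 8.8% of all features, so snoRNAs did not stand out by calls. Most box C/D snoRNAs guide 2′-O-methylation on ribosomal RNA, and most of the box H/ACA type guide pseudouridylation. These 5 are shown with RefSeq R64 sequences, 5′ to 3′ in DNA letters. The D box or the ACA lies near the mature 3′ end, which Rrp6 is known to trim towards, and the C box near the 5′ end. Capitals mark the C box TGATGA within the first 30 bases and the D box CTGA within the last 15, or the ACA that ends 3 bases before the 3′ end.
SNR53 (chromosome V, plus strand): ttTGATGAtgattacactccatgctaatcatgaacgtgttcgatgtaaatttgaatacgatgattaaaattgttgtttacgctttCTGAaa
SNR68 (chromosome IX, plus strand): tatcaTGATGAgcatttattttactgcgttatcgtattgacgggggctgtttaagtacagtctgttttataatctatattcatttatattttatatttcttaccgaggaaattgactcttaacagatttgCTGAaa
SNR58 (chromosome XV, minus strand): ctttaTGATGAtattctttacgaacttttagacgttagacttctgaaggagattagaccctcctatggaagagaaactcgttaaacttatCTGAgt
SNR4 (chromosome V, plus strand): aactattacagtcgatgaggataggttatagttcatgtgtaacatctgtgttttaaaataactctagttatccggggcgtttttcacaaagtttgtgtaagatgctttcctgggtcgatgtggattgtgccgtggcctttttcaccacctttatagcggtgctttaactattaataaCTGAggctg
SNR49 (chromosome XIV, plus strand): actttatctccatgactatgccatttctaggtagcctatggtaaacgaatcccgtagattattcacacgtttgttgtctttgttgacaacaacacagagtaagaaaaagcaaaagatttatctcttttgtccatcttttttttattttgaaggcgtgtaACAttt
The letters TGATGA were not in the first 30 bases of SNR4. Searched on the RNA strand alone, both boxes were found in 37 of 47 box C/D snoRNAs (78.7%), and the terminal ACA in 14 of 29 box H/ACA snoRNAs (48.3%), so the boxes do not set these 5 apart.

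SNR53 had 82.5 and 29.5 CPM in rrp6, against 5.55 and 6.86 CPM in WT, a log2 fold change of 3.16 (SE 0.51, adjusted p = 0.0069 by edgeR). SNR68 had 160.4 and 92.8 CPM in rrp6 and 25.3 and 28.5 CPM in WT (2.23, SE 0.36, adjusted p = 0.0048 by edgeR). Both calls held in all 16 alternatives. SNR4 had 633 and 334 CPM in rrp6 and 59.6 and 132 CPM in WT, and its call ended without rrp6 replicate 1 or WT replicate 1, where its change was 1.80 and 1.79. SNR58 had 170.2 and 120.4 CPM in rrp6 and 18.5 and 45.5 CPM in WT, and its call ended without rrp6 replicate 1 (1.90). SNR49 had 29.1 and 24.4 CPM in rrp6 and 6.04 and 8.90 CPM in WT, and its call ended without WT replicate 1 (1.498) and with the ribosomal DNA share in the model. The groups of all 5 lie apart, as the naming rule asks.

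The snoRNA class as a whole depended on both WT libraries. Of 68 tested, 56 had a positive fold change, with a median of 0.74, and 30 had both rrp6 libraries above both WT libraries, against 28.5% of all features. The class held 3.06 and 3.16% of the counts outside ribosomal DNA in rrp6, and 1.16 and 2.63% in WT. The median was 0.18 without WT replicate 1 and 1.53 without WT replicate 2, and the number higher was 3 and 25. The box C/D list had a median of 0.79 over 41 tested and the box H/ACA list 0.54 over 27, and without WT replicate 1 these were 0.27 and -0.0024. The 8 snoRNAs that lie in introns were not tested, because none had more than 4.95 counts in any of the 4 libraries.

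Several abundant structured RNAs followed the replicate number and not the strain. SNR11 had 132 and 555 CPM in rrp6 and 76.6 and 527 CPM in WT. SNR63 had 109.5 and 396 CPM in rrp6 and 72.3 and 387 CPM in WT. NME1, the RNA of RNase MRP, had 84.1 and 289 CPM in rrp6 and 50.6 and 232 CPM in WT. SCR1, the signal recognition particle RNA, and RPR1, the RNA of RNase P, had the same pattern. In all, 14 structured RNAs were over 2-fold higher in replicate 2 than in replicate 1 of both strains. They were 10 of 68 tested snoRNAs, 1 of 6 snRNAs and 3 of 9 other structured or noncoding RNAs. None of these 14 passed the test. Not all were alike in the 2 strains, as SNR41 had 48.7 and 150.9 CPM in rrp6 and 17.4 and 56.6 CPM in WT. The same difference was seen in 48 of 67 transfer RNAs, 116 of 759 CUTs, 32 of 687 SUTs and 26 of 5547 protein-coding genes. The part that such differences between replicates play in the snoRNA values was not tested.

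**Figure D3:**
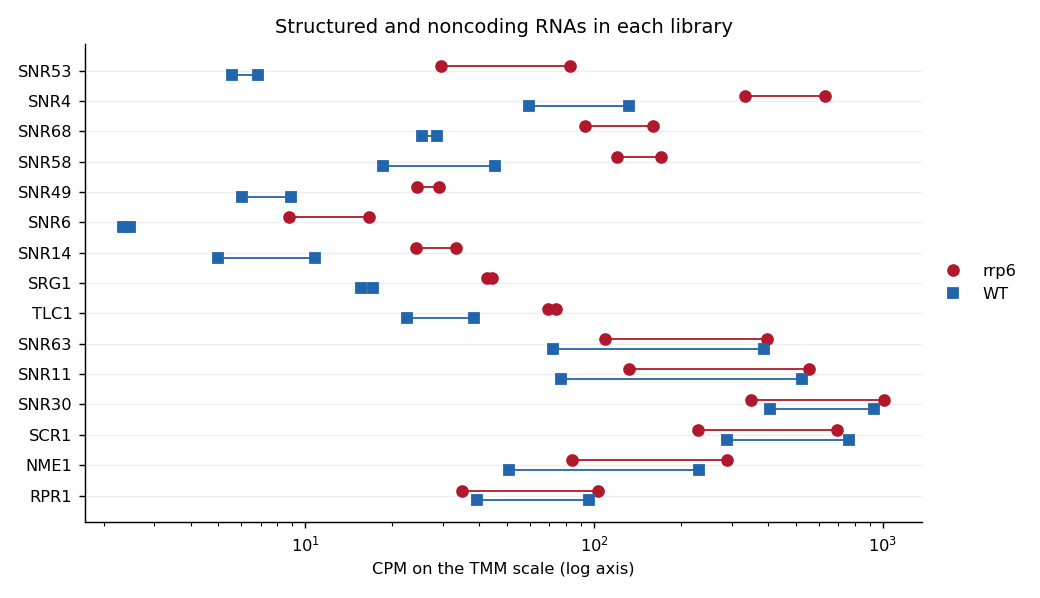
CPM (x axis, log scale) of 15 structured or noncoding RNAs (rows) in rrp6 libraries (red circles, upper) and WT libraries (blue squares, lower), with a line joining duplicates. The upper 9 rows hold calls with strains apart, as the naming rule asks, except that TLC1 was chosen outside that rule after its values were seen. In the lower 6 rows both strains span the same range, as for SNR11 with 132 and 555 CPM in rrp6 and 76.6 and 527 CPM in WT.

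Of the 6 spliceosomal snRNA features, 2 were higher (33.3%, against 8.8% of all features). SNR6, the U6 RNA made by RNA polymerase III, had 8.77 and 16.6 CPM in rrp6, against 2.33 and 2.47 CPM in WT (log2 fold change 2.39, SE 0.44, adjusted p = 0.0088 by edgeR), in all 16 alternatives. SNR14, the U4 RNA, had 24.1 and 33.2 CPM in rrp6 and 4.99 and 10.8 CPM in WT (1.82, SE 0.45, adjusted p = 0.038 by edgeR). The SNR14 call ended in 5 alternatives, each leaving out a library (rrp6 replicates 1 and 2, WT replicate 1, and both air1 rrp6 libraries), with a change of 1.31 to 2.03 there. LSR1, the U2 RNA, chosen after its values were seen, did not pass, with 1259 and 1333 CPM in rrp6 and 421 and 1174 CPM in WT.

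Among other noncoding RNAs, SRG1 had 44.3 and 42.4 CPM in rrp6 and 15.6 and 17.1 CPM in WT (log2 fold change 1.40, SE 0.20, adjusted p = 0.0031 by edgeR), in all 16 alternatives. SRG1 is transcribed across the promoter of the serine synthesis gene SER3 and is known to repress it. SER3 itself did not pass, with 24.1 and 37.2 CPM in rrp6 and 20.6 and 21.1 CPM in WT. TLC1, the telomerase RNA, had 74.0 and 69.5 CPM in rrp6 and 22.5 and 38.5 CPM in WT, and it and the identical copies RUF5-1 and RUF5-2 were the further calls of the class. They fall outside the rule for named features and were chosen after their values were seen. The TLC1 call ended in 5 alternatives, among them those without rrp6 replicate 1, WT replicate 1 and air1 rrp6 replicate 1, with a change of 0.81 to 1.65 over all 16, and the RUF5 calls ended in 10.

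Transfer RNAs, Ty elements, mitochondrial features and the 2-micron plasmid gave no call in either direction. For transfer RNAs, 66 of the 67 tested had a negative fold change with a median of -0.84, yet this sign did not hold in all alternatives. Transfer RNAs held 0.0611 and 0.165% of the counts outside ribosomal DNA in the rrp6 libraries, and 0.0552 and 0.343% in the WT libraries, and the median was 0.92 without WT replicate 2 and 0.48 with the ribosomal DNA share in the model. Ty elements held 4.29 and 3.89% in rrp6 and 3.78 and 2.92% in WT.

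Ribosomal DNA features did not pass the test either, at a median of -0.41 over 25 features that share reads between repeats. Relative to 25S counts within the same library, however, spacer and 5.8S counts were higher in both rrp6 libraries. The external spacer ETS1 held 0.576 and 0.756% of the 25S count in rrp6, against 0.246 and 0.218% in WT. ITS1 held 0.932 and 0.499% in rrp6 and 0.174 and 0.281% in WT, and ITS2 held 0.315 and 0.339% in rrp6 and 0.127 and 0.161% in WT. The 5.8S RNA, whose 3′ end Rrp6 trims, held 24.6 and 10.9% in rrp6 and 4.97 and 7.95% in WT. The groups did not overlap in any of these ratios, nor for 18S, at 61.6 and 56.7% in rrp6 and 49.7 and 55.5% in WT. The smallest p of an exact test here is 0.33, and the ratios were chosen after the values were seen. Whether the amount of mature ribosomal RNA carried through the selection plays a part was not tested.

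Protein-coding genes centred on a log2 fold change of -0.10 and few passed the test. Higher genes numbered 84 without rrp6 replicate 2 and 23 to 36 when any other library was left out. Lower genes numbered 319 without rrp6 replicate 2, 26 without rrp6 replicate 1, 47 without WT replicate 1 and 60 to 104 without another. Of the 56 that were higher, 21 averaged under 1 CPM in WT and 14 have no name beyond the systematic one. By quartiles of mean level, from low to high, 31, 11, 5 and 9 genes were higher and 27, 23, 21 and 24 lower. The higher genes were thus mostly genes of low level, whereas the lower genes were spread over all levels.

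NRD1 was the most abundant of the 10 largest rises. It encodes the RNA-binding subunit of the complex that terminates CUTs and snoRNAs, and its mRNA is known to be attenuated by that complex. It had 97.7 and 68.5 CPM in rrp6, against 11.7 and 19.9 CPM in WT, a log2 fold change of 2.38 (SE 0.35, adjusted p = 0.0034 by edgeR), in all 16 alternatives. Of the other 7 members of the noncoding termination list none passed with all libraries, with NAB3, its partner, at 113 and 90.1 CPM in rrp6 and 71.3 and 50.1 CPM in WT (0.74, adjusted p = 0.1 by edgeR). SEN1, the helicase, had 120.3 and 90.1 CPM in rrp6 and 87.7 and 75.3 CPM in WT, and PCF11 28.1 and 27.1 CPM in rrp6 and 12.8 and 22.0 CPM in WT. PCF11 passed without WT replicate 2 (1.08, adjusted p = 0.049 by edgeR). SSU72, RTT103, STO1 and CBC2 lay between -0.41 and 0.62.

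Genes of the machinery that works with Rrp6 gave no call with all 8 libraries in the fit. None of the 12 genes of the nuclear exosome list passed, from LRP1 at -0.70 to RRP4 at 0.51, with DIS3, the other nuclease, at 43.2 and 36.4 CPM in rrp6 and 34.3 and 37.0 CPM in WT. LRP1, a cofactor that binds Rrp6, had 7.73 and 10.9 CPM in rrp6 and 17.1 and 13.2 CPM in WT (-0.70, SE 0.29, adjusted p = 0.18 by edgeR). None of the 5 TRAMP genes passed. AIR2 had 15.8 and 11.6 CPM in rrp6 and 8.21 and 7.88 CPM in WT (0.77, SE 0.24, adjusted p = 0.081 by edgeR), and MTR4, TRF5, AIR1 and PAP2 lay between 0.13 and 0.56. Without rrp6 replicate 2, AIR2 (0.98, adjusted p = 0.045 by edgeR) and PAP2 (0.95, adjusted p = 0.039) passed. In the mRNA binding and export list NAB2 alone of 18 passed, at 75.7 and 87.1 CPM in rrp6 and 42.7 and 38.1 CPM in WT (1.01, SE 0.19, adjusted p = 0.0096 by edgeR). Nab2 is a poly(A)-binding protein known to lower its own mRNA through a run of adenosines and Rrp6. Its call ended without WT replicate 2 (0.90) and with the ribosomal DNA share in the model. It falls outside the naming rule and was chosen after its values were seen.

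**Figure D4:**
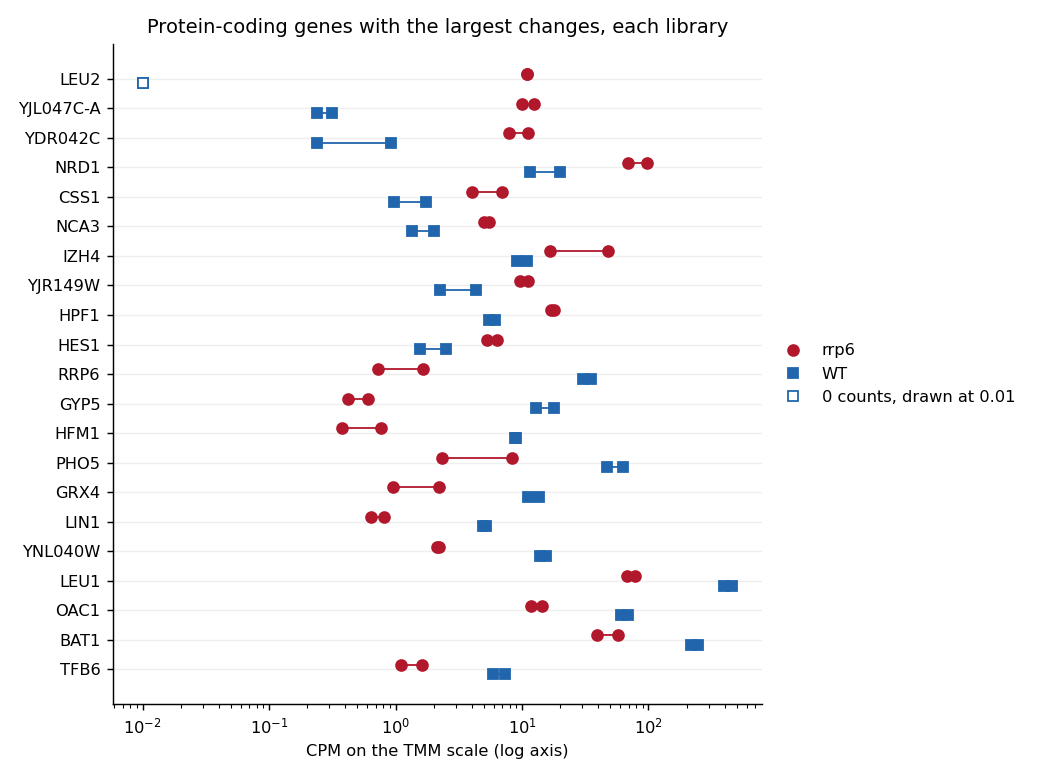
CPM (x axis, log scale) of the 10 protein-coding genes with the largest rise and the 11 with the largest fall among those named, RRP6 included (rows), in rrp6 libraries (red circles, upper) and WT libraries (blue squares, lower); open squares mark 0 counts. The strains lie apart in every row, as the rule that chose the genes asks, and NRD1 at 97.7 and 68.5 CPM in rrp6 and LEU1 at 459 and 394 CPM in WT are the most abundant of each set.

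Of the other large rises, 2 lie just downstream of a snoRNA. YDR042C, a gene of unknown function, had 11.2 and 7.93 CPM in rrp6, against 0.242 and 0.921 CPM in WT, a log2 fold change of 3.77 (SE 0.43, adjusted p = 0.0014 by edgeR). In RefSeq R64 it starts 398 bases after SNR47 on the same strand. YJL047C-A had 10.01 and 12.4 CPM in rrp6 and 0.242 and 0.313 CPM in WT (5.23, SE 0.32, adjusted p = 3.4e-05 by edgeR), but it overlaps SNR60 by 49 bases, so reads of both cannot be told apart. After these values were seen, all protein-coding genes that come next on the same strand after a snoRNA or snRNA outside introns were taken from the RefSeq annotation. Of 28 such genes 6 were higher (21.4%, against 1.01% of all protein-coding genes) and 0 lower. YDR042C and YJL047C-A prompted the set and cannot count for it, and of the other 26 genes 4 were higher (15.4%).

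The further 4 were RGT1, SFT1, FLX1 and USE1. RGT1, a glucose-responsive repressor that follows SNR69, had 84.7 and 45.2 CPM in rrp6 and 24.6 and 21.8 CPM in WT (1.49, SE 0.32, adjusted p = 0.018 by edgeR). SFT1, a Golgi SNARE that follows SNR87, had 10.6 and 16.2 CPM in rrp6 and 5.96 and 6.17 CPM in WT. FLX1, a mitochondrial FAD carrier that follows SNR68, had 13.8 and 18.7 CPM in rrp6 and 8.37 and 7.83 CPM in WT. USE1, a SNARE of the endoplasmic reticulum that follows SNR82, had 21.8 and 16.4 CPM in rrp6 and 11.1 and 11.0 CPM in WT. The RGT1 call ended in 4 alternatives, the SFT1 and FLX1 calls in 5 each and the USE1 call in 9, all 4 without WT replicate 1 and without WT replicate 2. The other 22 lay between -0.71 and 0.48, so the median of the 27 genes that do not overlap their snoRNA was 0.01, and TRS31 after SNR13 was among them at 0.26. Gaps were 148 to 728 bases for the 5 of these that were higher and 193 to 996 for the 22. Of the 26, the number higher was 0 without WT replicate 1, without WT replicate 2 and with the ribosomal DNA share in the model, 1 with the 2 strains fitted alone, and 2 without either rrp6 library.

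The remaining genes of the 10 largest rises encode cell wall, membrane and uncharacterised proteins. HPF1, a cell wall mannoprotein, had 17.9 and 16.9 CPM in rrp6 and 6.11 and 5.46 CPM in WT (1.59, SE 0.23, adjusted p = 0.0031 by edgeR), in all 16 alternatives. CSS1, a related secreted protein, had 4.01 and 6.93 CPM in rrp6 and 0.976 and 1.74 CPM in WT, and NCA3 had 5.48 and 4.96 CPM in rrp6 and 2.01 and 1.35 CPM in WT. HES1, an oxysterol-binding protein, had 5.25 and 6.36 CPM in rrp6 and 2.50 and 1.56 CPM in WT, and YJR149W had 11.2 and 9.63 CPM in rrp6 and 2.25 and 4.34 CPM in WT. IZH4, a membrane protein linked to zinc, had 47.7 and 16.5 CPM in rrp6 and 11.0 and 9.06 CPM in WT. Its call ended in 12 alternatives, with a change of 0.73 without rrp6 replicate 1. The CSS1, NCA3, HES1 and YJR149W calls ended in 3 or 4 each, with changes over all alternatives of 1.48 to 2.46, 1.35 to 1.86, 1.19 to 1.79 and 1.17 to 2.18. WT replicate 1 decided CSS1 and YJR149W, WT replicate 2 decided NCA3 and HES1, rrp6 replicate 1 decided NCA3 and YJR149W, and rrp6 replicate 2 decided CSS1.

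Subtelomeric and anaerobic cell wall families (COS, DAN, PAU, TIR) stood higher as a list. Of 32 tested, 4 were higher and 0 lower, 25 had a positive fold change, and the median was 0.80, against -0.10 over all protein-coding genes. COS8 had 19.4 and 20.9 CPM in rrp6 and 6.30 and 8.85 CPM in WT (1.39, SE 0.26, adjusted p = 0.0086 by edgeR). TIR4 had 6.26 and 4.79 CPM in rrp6 and 2.33 and 2.19 CPM in WT, TIR2 had 3.68 and 2.63 CPM in rrp6 and 0.754 and 0.907 CPM in WT, and PAU12 changed by 2.46. Many members of these families are near-identical. COS8, TIR2 and PAU12 have fractional counts, as arises when reads are shared, so their separate values are uncertain. The counts of TIR4 are whole. The COS8 call ended only without WT replicate 1 (1.09), and the TIR2, TIR4 and PAU12 calls in 5, 6 and 7 alternatives. The count of higher members was 0 without WT replicate 1, 1 without WT replicate 2 and 1 without rrp6 replicate 1, and the median ran from 0.48 to 0.94 over all alternatives.

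**Figure D5:**
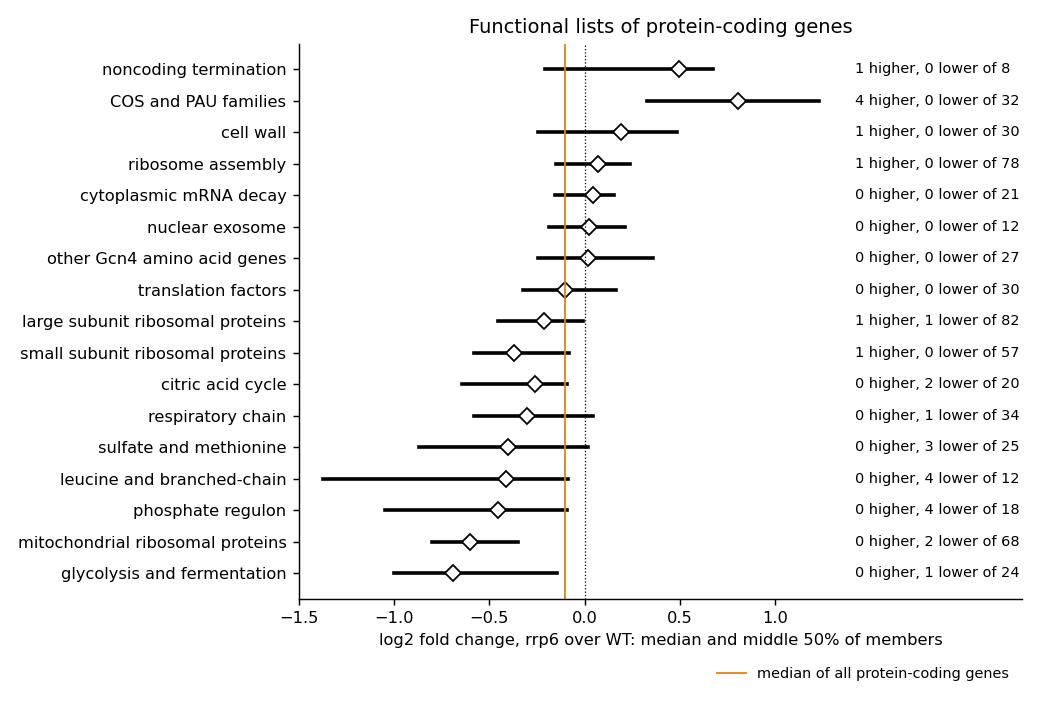
Median (diamonds) and middle 50% (bars) of the log2 fold change of rrp6 over WT (x axis) for 17 functional lists (rows), with the count past the threshold at the right; the orange line marks the median of all protein-coding genes, -0.10. The COS and PAU families lie furthest right of these lists at 0.80 and glycolysis and fermentation furthest left at -0.69.

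Leucine synthesis genes held the most abundant of the large falls. LEU1, isopropylmalate isomerase, had 78.9 and 67.9 CPM in rrp6, against 459 and 394 CPM in WT, a log2 fold change of -2.54 (SE 0.23, adjusted p = 0.00051 by edgeR). OAC1, a mitochondrial carrier that exports isopropylmalate, had 11.7 and 14.3 CPM in rrp6 and 68.3 and 60.8 CPM in WT (-2.31, SE 0.22, adjusted p = 0.00054 by edgeR). BAT1, the mitochondrial branched-chain aminotransferase, had 39.3 and 57.2 CPM in rrp6 and 247 and 218 CPM in WT (-2.27, SE 0.24, adjusted p = 0.001 by edgeR). These 3 calls held in all 16 alternatives. ILV3, dihydroxyacid dehydratase, had 214 and 252 CPM in rrp6 and 531 and 453 CPM in WT, and its call ended without rrp6 replicate 1 (-0.96) or WT replicate 1 (-1.05), with the ribosomal DNA share in the model and in a fit of the 2 strains alone. These 4 are 33.3% of the 12 members, against 1.71% lower of all protein-coding genes. The other 8 members did not pass, and 27 genes of other amino acid pathways under Gcn4 had 0 calls and a median of 0.02. WT lacks LEU2 and rrp6 carries it, so these genes differ between strains of unlike leucine genotype.

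The activator Leu3, which responds to isopropylmalate, is known to bind CCG and CGG with 4 bases of any kind between them. The 500 bases before the coding start held this motif on either strand for LEU1, BAT1 and OAC1 and not for ILV3. It was found for 7 of the 12 genes of the list, for 8 of the 95 lower genes, and for 193 of 5894 protein-coding windows (3.27%). Capitals mark the match nearest the start in the RefSeq R64 sequences below, which begin their match 187 bases before the start of LEU1, 147 before BAT1 and 484 before OAC1.
LEU1 (chromosome VII, minus strand): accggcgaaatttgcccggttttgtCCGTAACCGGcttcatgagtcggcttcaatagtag
BAT1 (chromosome VIII, plus strand): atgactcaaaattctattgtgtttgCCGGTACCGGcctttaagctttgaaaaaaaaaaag
OAC1 (chromosome XI, plus strand): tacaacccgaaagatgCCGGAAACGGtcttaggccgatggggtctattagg
The motif was also found before BAT2, ILV5, ILV2 and LEU9, none of which passed the test, so a match did not go with a fall in every case.

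Of the largest falls outside leucine synthesis, 6 were in neither of the leucine and phosphate lists. GYP5, a GTPase-activating protein for Rab proteins, had 0.606 and 0.424 CPM in rrp6, against 18.03 and 12.8 CPM in WT (-4.86, SE 0.48, adjusted p = 0.00065 by edgeR). HFM1, a meiotic DNA helicase, had 0.375 and 0.764 CPM in rrp6 and 8.94 and 8.85 CPM in WT. GRX4, a glutaredoxin of iron signalling, had 0.952 and 2.21 CPM in rrp6 and 11.2 and 13.6 CPM in WT. YNL040W had 2.14 and 2.21 CPM in rrp6 and 13.8 and 15.5 CPM in WT, LIN1 had 0.635 and 0.806 CPM in rrp6 and 5.15 and 4.93 CPM in WT, and TFB6 had 1.10 and 1.61 CPM in rrp6 and 7.33 and 5.91 CPM in WT. All 6 passed in all 16 alternatives.

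Phosphate genes were lower for 4 of 18 (22.2%, against 1.71% of all protein-coding genes), all 4 of them phosphatases. PHO5, the secreted acid phosphatase, had 2.32 and 8.34 CPM in rrp6, against 62.8 and 46.9 CPM in WT (-3.38, SE 0.52, adjusted p = 0.0051 by edgeR), and PHO12 had 64.2 and 57.8 CPM in rrp6 and 136 and 144 CPM in WT (-1.20, SE 0.18, adjusted p = 0.004 by edgeR). Both held in all 16 alternatives. PHO8, the vacuolar alkaline phosphatase, had 46.4 and 51.5 CPM in rrp6 and 109.6 and 96.9 CPM in WT. Its call ended without any 1 of the 4 libraries of the comparison, at -1.19 to -1.0005, and with the ribosomal DNA share in the model. PHO11 ended in 7 alternatives, at -0.79 without WT replicate 2 and -1.02 without rrp6 replicate 1. Reads of the near-identical pair PHO11 and PHO12, and of their relative PHO5, may be shared, so their separate values are uncertain. PHO84, the phosphate transporter known for antisense RNAs that accumulate without Rrp6, had 348 and 397 CPM in rrp6 and 439 and 423 CPM in WT (-0.21, adjusted p = 0.61 by edgeR). It is given for that background and lies outside the naming rule.

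The methionine and vitamin lists gave 3 lower of 25 tested each (12%, against 1.71% of all protein-coding genes). Their medians were -0.40 and -0.11, against -0.10 over all protein-coding genes. MET6, methionine synthase, had 84.6 and 79.6 CPM in rrp6 and 171 and 188 CPM in WT (-1.13, SE 0.19, adjusted p = 0.0059 by edgeR), and MET17, which makes homocysteine, had 60.7 and 70.7 CPM in rrp6 and 118 and 158 CPM in WT. SAM2, S-adenosylmethionine synthetase, had 24.0 and 22.6 CPM in rrp6 and 51.1 and 37.9 CPM in WT. BNA5 and BNA6 of NAD synthesis and BIO2, biotin synthase, changed by -1.06, -1.09 and -0.89. MET6 lost its call with the 2 strains fitted alone, and the other 5 in 4 to 7 alternatives, each of them without rrp6 replicate 1, where changes ran from -0.97 to -0.90. MET17 and BNA5 also ended without WT replicate 2 (-0.87 and -0.89), SAM2 and BNA6 without WT replicate 1 (-0.79 and -1.13), SAM2 without rrp6 replicate 2 (-0.88), and BIO2 without any 1 of the 4 libraries.

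Genes with mitochondrial products made up 40% of the lower genes and 20.8% of all tested genes, a difference that was not kept in every alternative. This grouping was made with the values in view. By the annotations that RefSeq lists with experimental evidence, 1153 of 5547 tested genes (20.8%) had a mitochondrial product, and 38 of the 95 lower genes (40%) and 3 of the 56 higher genes did. That is 3.30% lower among the 1153 and 1.30% among the other 4394, with medians of -0.19 and -0.08. A high share was not particular to mitochondrial products. By the same annotation, 8 of 174 genes with cell wall products were lower, a larger share. Other compartments ranged from 1 of 273 for the nucleolus to 10 of 368 for the plasma membrane. The 38 include OAC1, BAT1 and ILV3 of the leucine list. They also include MRPL7, MRPS28, LSC2, LPD1 and BIO2 of other lists, so these results are not independent. The annotation takes in proteins seen in mitochondrial fractions that also work elsewhere, such as TDH2, a glyceraldehyde-3-phosphate dehydrogenase. DIC1, the dicarboxylate carrier, had 7.59 and 13.1 CPM in rrp6 and 35.0 and 29.2 CPM in WT, and ALD5, a mitochondrial aldehyde dehydrogenase, had 41.6 and 46.5 CPM in rrp6 and 118 and 100.3 CPM in WT. Both passed in all 16 alternatives and were chosen after their values were seen. The mitochondrial share of the lower genes was 23.1% (6 of 26) without rrp6 replicate 1, 22.7% (5 of 22) with the ribosomal DNA share in the model and 19.2% (5 of 26) in a fit of the 2 strains alone, all near the share of tested genes. In the other 13 alternatives it was 27.7 to 42.7%. The count of lower mitochondrial genes was 6 without rrp6 replicate 1, 97 without rrp6 replicate 2, 13 without WT replicate 1, 24 with totals outside ribosomal DNA, and 5 in a fit of the 2 strains alone, as with the ribosomal DNA share in the model. It was 62 with the DESeq2 Wald test and 19 when air1 rrp6 replicate 2 or either of the air2 rrp6 libraries was left out.

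The 68 genes of mitochondrial ribosomal proteins were low together while few passed. Of these, 64 had a negative fold change, 49 had both rrp6 libraries below both WT libraries, and the median was -0.60. Of all 5547 protein-coding genes, 3373 had a negative fold change and 1595 had both rrp6 libraries below both WT libraries. MRPL7 had 7.10 and 7.93 CPM in rrp6 and 13.0 and 16.3 CPM in WT (-0.97, adjusted p = 0.025 by edgeR), and MRPS28 had 9.26 and 11.8 CPM in rrp6 and 22.5 and 16.5 CPM in WT (-0.89, adjusted p = 0.05 by edgeR). The MRPL7 call ended in 6 alternatives and the MRPS28 call in 9, in both cases without rrp6 replicate 1 (-0.89 and -0.72). The MRPL7 call also ended without WT replicate 2 (-0.82) and the MRPS28 call without WT replicate 1 (-0.75). Over all alternatives the median of the list ran from -0.77 to -0.43.

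Cytosolic ribosomal protein genes had medians of -0.21 for the large subunit and -0.37 for the small subunit. RPL8A had 105.5 and 111.2 CPM in rrp6 and 253 and 259 CPM in WT (-1.24, SE 0.19, adjusted p = 0.0044 by edgeR), in all 16 alternatives, while its near-identical copy RPL8B did not pass (0.11). RPL18B had 290.4 and 307 CPM in rrp6 and 169 and 162 CPM in WT (0.85, SE 0.22, adjusted p = 0.042 by edgeR), a call that ended in 10 alternatives at 0.78 to 0.89, without any 1 of the 8 libraries. Copies share reads, so these opposite changes are uncertain. Glycolysis and fermentation genes had 20 of 24 negative fold changes, against 3373 of 5547 for all protein-coding genes, and a median of -0.69. TDH2 was the 1 call, at 413 and 408 CPM in rrp6 and 1237 and 658 CPM in WT. TDH2 lies outside the naming rule and was picked with its values in view. Without WT replicate 1 its change was -0.77 and no longer called. The call ended in 9 alternatives in all, also without rrp6 replicate 1 or rrp6 replicate 2.

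The citric acid cycle list had 2 of 20 lower (10%, against 1.71% of all protein-coding genes). LSC2, succinyl-CoA ligase, had 11.3 and 14.9 CPM in rrp6 and 27.4 and 25.2 CPM in WT. LPD1, dihydrolipoamide dehydrogenase, had 47.2 and 58.5 CPM in rrp6 and 87.1 and 91.4 CPM in WT. The peroxisome and fatty acid oxidation list was split. It had 2 higher and 2 lower of 20 (10% each, against 1.01 and 1.71% of all protein-coding genes). PXA1, a fatty acyl-CoA transporter, had 1.39 and 1.53 CPM in rrp6 and 5.96 and 3.65 CPM in WT, and PEX14, of the import machinery, had 2.31 and 6.32 CPM in rrp6 and 15.1 and 12.2 CPM in WT. DCI1, a dienoyl-CoA isomerase homologue, had 6.46 and 6.11 CPM in rrp6 and 3.38 and 3.11 CPM in WT, and the carnitine carrier gene CRC1 had 0.721 and 0.551 CPM in rrp6 and 0.0805 and 0.0822 CPM in WT. SEC4, a secretory Rab protein, had 13.8 and 27.0 CPM in rrp6 and 58.4 and 46.5 CPM in WT. In lipid synthesis INO1 changed by 2.44 and OPI3 by -1.09, and in meiosis MND1 changed by 1.84. All 10 calls ended without rrp6 replicate 1, with changes there of -0.81 for LSC2, -0.61 for LPD1, -1.62 for PXA1, -1.10 for PEX14, 0.92 for DCI1, 2.69 for CRC1, -0.95 for SEC4, 2.196 for INO1, -1.30 for OPI3 and 1.99 for MND1. All except LSC2 and MND1 also ended without WT replicate 1, and MND1 ended without WT replicate 2 (1.26). INO1 changed by 5.08 without WT replicate 2 and by 1.83 without WT replicate 1.

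Of 49 functional lists, 23 held no call in either direction. Since 1.01% of protein-coding genes were higher and 1.71% lower, a short list without a call does not stand out. Cytoplasmic mRNA decay, cleavage and polyadenylation, purine synthesis, the iron regulon, histones, chaperones, translation factors, aminoacyl-tRNA synthetases, the proteasome, the cell cycle and DNA replication and repair were among them, with medians from -0.29 for purine synthesis to 0.14 for the cell cycle. Nucleotide genes known for early termination upstream of their starts, such as IMD2 and URA2, also gave 0 calls of 6, with IMD2 at 29.9 and 28.3 CPM in rrp6 and 33.1 and 31.3 CPM in WT. Among lists with a single call, each chosen after its values were seen, 2 lower genes held in all 16 alternatives. GDH1 of the nitrogen list, a glutamate dehydrogenase, had 62.6 and 69.6 CPM in rrp6 and 297 and 199 CPM in WT (-1.91, SE 0.27, adjusted p = 0.0031 by edgeR). APE1 of the autophagy and vacuole list, a vacuolar aminopeptidase, had 8.08 and 11.5 CPM in rrp6 and 45.7 and 28.7 CPM in WT (-1.92, SE 0.31, adjusted p = 0.0046 by edgeR). GRX4 and LIN1, given above, were the single calls of the oxidative stress and splicing lists, and SOD2 (-1.07) and COX5B (-1.12), single calls of the general stress and respiratory chain lists, each ended in 10 alternatives. Single higher calls include ribosome assembly with DBP6 (1.01), RNA polymerases I and III with RRN3 (0.84), cell wall with GSC2 (0.88) and the small ribosomal subunit with RPS14B (0.89). These 4 calls ended in 4 to 9 alternatives, all with the 2 strains fitted alone. Genes with an intron gave 4 higher and 5 lower of 266, with a median of -0.18. A call that was not made does not show that a gene was the same in both strains.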

How the data were processed

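The authors deposited 1 table of estimated counts per feature, not scaled for depth, for 8 libraries. Bowtie 0.12.7, SAMtools and edgeR 2.2.5 are named in the submitters' processing notes. The genome build, the use of strand and the counting of reads with several matches are not stated by the labels or the file. Expected counts were rounded and tested with edgeR 4.0.16 in R 4.3.3 (robust quasi-likelihood test, TMM scaling, filterByExpr with a minimum count of 10), fitting 1 mean per strain over 4 strains of 2 libraries each. P-values were Benjamini-Hochberg adjusted over 7543 features at 0.05. The filter took in all 8 libraries, so a feature of any class could be tested through strains without RRP6 alone. The fit was tested on simulated data.

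Named features were, per class, the largest called changes in each direction that reached 5 CPM in 1 strain and kept its libraries apart (10 for protein-coding genes, 5 for others), up to 4 members of each list with at least 2 calls, and all members of the TRAMP, nuclear exosome and termination lists. The deleted genes, the markers and the genes beside RRP6 were also named. The members and lists were chosen with earlier results of these data known. Gene annotation and sequences came from RefSeq R64, matched by name for 6145 features. Alternatives included DESeq2 1.42.0.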

Additional observations from a re-analysis of the deposited data

How the results depend on the processing

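No sign turned among 70 named calls, of which 34 held in all 16 alternatives. The cause of the moves below was not tested. With the 2 strains fitted alone, features higher and lower numbered 319 and 27, CUTs 245, SUTs 37, protein-coding genes higher and lower 16 and 26, and frames without a RefSeq entry 12. With the ribosomal DNA share in the model these were 303, 22, 226, 41, 16, 22 and 11. DESeq2's Wald test gave 165 lower features, 162 lower protein-coding genes and 16 higher snoRNAs.

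The labels tie no replicate number to a batch, culture or day, and with 2 numbers a strain the libraries were treated as sharing only a number. Deviations of same-numbered rrp6 and WT libraries correlated at 0.23 across features, and at 0.13 to 0.37 over all strain pairs. With the replicate number as a block, 207 features and 202 protein-coding genes were lower, 93 protein-coding genes and 8 snoRNAs were higher, and 73 mitochondrial genes were lower. NAB3 then passed (0.75, adjusted p = 0.019 by edgeR).

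Leaving out 1 library gave 433 to 573 higher and 28 to 323 lower features, 279 to 379 CUTs, 62 to 90 SUTs, 23 to 84 higher and 26 to 319 lower protein-coding genes, 13 to 24 frames and 3 to 25 snoRNAs. The 323 and 319 came without rrp6 replicate 2. The median log2 fold change ran from 2.61 to 4.16 for CUTs, 0.70 to 1.10 for SUTs, 0.18 to 1.53 for snoRNAs, -1.53 to 0.92 for transfer RNAs, -0.18 to -0.094 for protein-coding genes and -0.051 to 0.031 for all features. The transfer RNA median was 0.48 with that share in the model. The median of all features was 0.067 with totals outside ribosomal DNA, 0.10 with TMM from protein-coding genes and 0.035 with that share in the model, and that of protein-coding genes -0.041, -0.011 and, with the 2 strains alone, -0.081. As shares of all counts, ribosomal DNA included, the log2 ratios were 3.64 for CUTs, 1.53 for SUTs and 0.49 for protein-coding genes. Higher calls were 87.3% of all calls, and 63.95% without rrp6 replicate 2.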
